A study of Mus musculus with 14 samples.

Results

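The genes followed here encode the nuclear part of the respiratory chain and of ATP synthase in the mouse small intestine. A gene was taken where a probe set was annotated to its symbol alone and that symbol began with Nduf, with Sdh and a letter from a to d, with Uqcr, with Cox4 to Cox8 or with Atp5, and Cyc1 and Cycs were added. This gave 89 of the 12394 genes on the arrays, measured by 164 probe sets. By the complex of their product, 33 genes belonged to complex I, 4 to complex II, 9 to complex III, 1 to cytochrome c, 17 to complex IV and 17 to complex V, and the other 8 encode assembly factors. The series compared gene expression along the crypt-villus axis and between the layers of the fetal gut, on 14 arrays in 4 groups. Villi (3 arrays, labelled V12, V41 and V275) and crypts (3 arrays, labelled K12, K21 and K41) came from adult C57BL/6 mice aged 12 weeks. E12 endoderm (4 arrays) and E12 mesenchyme (4 arrays) were separated from fetal intestine after collagenase digestion on embryonic day 12. The first of the deposited tables held the 6 adult arrays and 1 array of each E12 layer, made from a pool of 35 fetuses. The second held the other 3 arrays of each E12 layer, each from 10 to 12 pooled fetuses. A pool averages its fetuses, and the labels do not say whether equally numbered villus and crypt arrays came from 1 mouse, so p-values measure the spread between these samples.

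The respiratory chain passes electrons from NADH, through complex I, and from succinate, through complex II, to ubiquinone. Complex III then hands them to cytochrome c, and complex IV to oxygen, while complexes I, III and IV pump protons across the inner mitochondrial membrane. Complex V, the ATP synthase, lets the protons flow back and makes ATP. Some subunits come in tissue isoforms, and assembly factors build the complexes without staying in them. In the small intestine, dividing crypt cells supply the absorptive cells of the villi, which spend ATP on the uptake of nutrients.

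Promoters are shown for 5 members whose values the results below turn on: a pair of isoforms of 1 subunit (Cox7a1 and Cox7a2), the electron carrier Cycs, the assembly factor Ndufaf4 and the ATP synthase gene Atp5g2. Each window runs from 250 bases before to 50 bases after a RefSeq transcript start, 5′ to 3′ along the strand of its gene, in GRCm38.p6. They lie at chr7:30183921-30184220 (plus strand, Cox7a1), chr9:79759804-79760103 (minus, Cox7a2), chr6:50566520-50566819 (minus, Cycs), chr4:24897833-24898132 (plus, Ndufaf4) and chr15:102670998-102671297 (minus, Atp5g2). The start used for Cox7a2 lies inside the gene, which spans 79755241 to 79771422. Capitals mark the letters GCGCANGCG on either strand, which the transcription factor NRF1 is known to bind at many genes for mitochondrial proteins.
Cox7a1: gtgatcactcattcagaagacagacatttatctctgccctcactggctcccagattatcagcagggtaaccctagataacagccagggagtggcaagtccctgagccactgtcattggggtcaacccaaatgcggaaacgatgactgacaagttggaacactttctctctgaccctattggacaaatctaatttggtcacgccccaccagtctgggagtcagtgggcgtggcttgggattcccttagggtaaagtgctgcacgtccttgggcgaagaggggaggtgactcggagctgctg
Cox7a2: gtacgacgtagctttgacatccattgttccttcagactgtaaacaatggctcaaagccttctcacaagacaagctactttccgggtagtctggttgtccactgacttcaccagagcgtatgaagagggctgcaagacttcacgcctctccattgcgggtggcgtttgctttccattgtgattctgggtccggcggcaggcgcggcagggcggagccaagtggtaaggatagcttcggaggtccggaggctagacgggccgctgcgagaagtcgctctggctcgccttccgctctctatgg
Cycs: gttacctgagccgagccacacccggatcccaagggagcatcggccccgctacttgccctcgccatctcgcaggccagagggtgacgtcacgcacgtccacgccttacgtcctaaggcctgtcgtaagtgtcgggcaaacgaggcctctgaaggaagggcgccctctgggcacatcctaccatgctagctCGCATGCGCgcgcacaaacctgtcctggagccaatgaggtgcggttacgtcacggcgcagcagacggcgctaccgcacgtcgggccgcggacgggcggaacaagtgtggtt
Ndufaf4: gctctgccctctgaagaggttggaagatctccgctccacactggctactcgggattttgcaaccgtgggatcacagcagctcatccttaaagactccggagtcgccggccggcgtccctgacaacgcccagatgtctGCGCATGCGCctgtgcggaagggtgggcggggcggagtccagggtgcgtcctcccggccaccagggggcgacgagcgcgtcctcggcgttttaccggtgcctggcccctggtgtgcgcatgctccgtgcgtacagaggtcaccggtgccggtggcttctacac
Atp5g2: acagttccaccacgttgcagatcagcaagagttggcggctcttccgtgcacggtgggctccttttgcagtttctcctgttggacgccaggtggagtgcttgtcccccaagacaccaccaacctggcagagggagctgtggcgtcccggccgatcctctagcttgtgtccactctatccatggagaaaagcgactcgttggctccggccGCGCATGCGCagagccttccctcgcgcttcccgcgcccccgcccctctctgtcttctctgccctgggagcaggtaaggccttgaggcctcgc
The NRF1 letters were found in the windows of Cycs, Ndufaf4 and Atp5g2 and not in those of Cox7a1 and Cox7a2. In Ndufaf4 and Atp5g2 the marked stretch reads as the motif on both strands, the copies being offset by 1 base. Of the 89 members, 74 had a window in the RefSeq table. A gene with several windows was counted once, where any of them held the letters. The NRF1 letters stood at 21 of the 74 genes (28.4%), against 12.5% of the 9883 genes on the arrays with a window. The letters CCGGAAG, bound by ETS factors such as GABP, stood at 20 genes (27.0%, against 16.4%), and AANATGGCG, the YY1 letters, at 10 (13.5%, against 4.73%). AAGGTCA, bound by the estrogen-related receptors, stood at 7 genes (9.46%, against 4.35%). At least 1 of the 4 motifs, searched on both strands, was present at 44 member genes (59.5%), against 32.0% of all. By class, they stood at 16 of 30 genes of complex I (53.3%), 3 of 3 of complex II and 3 of 5 of complex III. They stood at 3 of 12 of complex IV (25.0%), 12 of 15 of complex V (80.0%) and 6 of 8 assembly factors (75.0%). The windows of Cox7a1, Cox7a2 and Cox6b2 held none of the 4, and that of Sdhaf1 held the ETS letters. A match describes the letters in these windows and shows no binding.

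Values are log2 signals, and differences are on the log2 scale with the group named first on top. A gene was tested where its signal passed the 30th percentile of its table in at least 3 arrays (5.78 in the first table and 4.74 in the second). It was called where its limma p, adjusted by Benjamini-Hochberg over all genes tested, was under 0.05. Marker genes followed the labels. The mean log2 signal of 4 enterocyte markers was 11.73 to 12.67 in villi and 7.20 to 7.28 in crypts, and that of 4 crypt markers was 7.86 to 9.11 in villi and 11.45 to 11.76 in crypts. T cell markers averaged 8.68 to 9.62 in villi and 6.55 to 6.71 in crypts, and 8 of 8 were called higher in villi. In the second table, markers of epithelium averaged 11.70 to 11.82 in E12 endoderm and 6.26 to 6.92 in mesenchyme. There, smooth muscle markers averaged 5.61 to 6.24 in E12 endoderm and 11.04 to 11.18 in mesenchyme, and erythroid markers 5.83 to 5.91 in E12 endoderm and 9.98 to 10.11 in mesenchyme. Neural markers averaged 4.95 to 5.24 in E12 endoderm and 8.07 to 8.37 in mesenchyme. The part of these admixed cells in the members' differences was not tested, and in such bulk samples fewer cells of a type and less RNA per cell cannot be told apart.

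Most members gave strong signals in all groups. The median over the 89 genes was 10.62, 10.05 and 10.61 in villi V12, V41 and V275 and 9.91, 10.18 and 10.75 in crypts K12, K21 and K41. It was 10.41 in the lone E12 endoderm array of the first table and 10.26 in its mesenchyme partner. Over all 12394 genes the arrays of that table had medians of 7.003 to 7.157, so the members stood well above the typical gene. In the second table the median of the members was 10.58, 10.52 and 10.55 in E12 endoderm and 10.69, 10.83 and 10.80 in mesenchyme.

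The adult arrays moved as whole sets of members. Villus V41 had the lowest of the 3 villus values for 72 of the 89 genes (80.9%), against 41.2% of all genes. Crypt K41 had the highest crypt value for 80 of 89 (89.9%, against 31.8% of all genes), and crypt K12 the lowest for 64 (71.9%, against 28.2%). The spread of the array medians, 10.42 ± 0.33 in villi and 10.28 ± 0.43 in crypts (SD, n = 3 each), was larger than the difference between the compartments. In the second table the array medians were 10.55 ± 0.03 in E12 endoderm and 10.77 ± 0.07 in mesenchyme (SD, n = 3 each), and mesenchyme 2 had the lowest mesenchyme value for 71 of 89 genes (79.8%, against 38.7% of all).

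**Figure D1:**
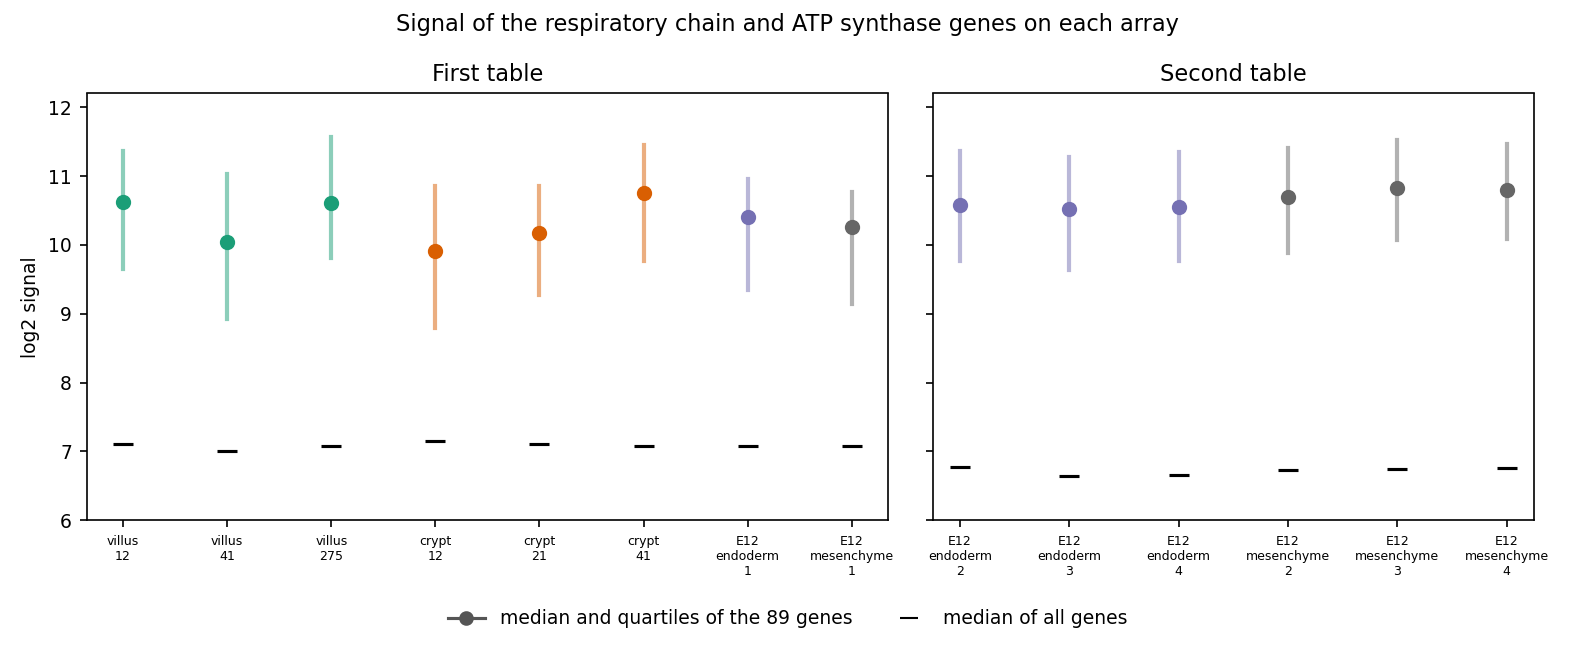
Median log2 signal of the 89 members in each array (point) with their quartiles (bar), and the median of all 12394 genes in the same array (black dash), for the 2 tables apart. Crypts range from 9.91 to 10.75 and overlap villi (10.05 to 10.62), while the 3 mesenchyme arrays of the second table lie above the 3 endoderm arrays by a small margin.

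Between villi and crypts, most subunits of the chain differed little. The largest changes were in the isoform genes Cox7a1 and Cox6b2 of complex IV and in assembly factors. Of the 88 members tested, 6 were called higher in villi (6.82%), where 16.9% of all genes tested were called higher, and 2 were called lower (2.27%), where 15.0% of all genes were. Of the 6, Cox6b2 lay near background in crypts. Cox7c was not tested because it lay near background. The difference was under 0.5 in size for 61 of 88 members (69.3%), against 61.0% of all genes, and its median was 0.21, against 0.00 over all genes. This median carries no settled direction, because it was -0.06 after quantile normalization, where 3 members were called higher and 8 lower.

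In complex I, 2 of 33 subunits were called, both higher in villi. Ndufa6, an accessory subunit of the LYR motif family, measured 10.60, 10.72 and 10.88 in villi and 9.16, 9.56 and 10.03 in crypts. Every villus array lay above every crypt array, with a difference of 1.15 (SE 0.23, adjusted p 0.00752), or 2.23-fold. Ndufa1, a small subunit of the membrane arm, measured 11.81, 11.66 and 11.67 in villi and 10.86, 10.48 and 11.32 in crypts (0.83, adjusted p 0.0228), again without overlap. Ndufa1 kept its call in 7 of 14 alternatives, where its difference went down to 0.43. Ndufs7, which carries an iron-sulfur cluster next to the ubiquinone site and was chosen after its values were seen, was uncalled at -0.85 (adjusted p 0.0879), and its second probe set gave -0.07. None of the 4 complex II genes was called by limma, and 1 had an unadjusted p under 0.05. The largest difference there was that of the iron-sulfur subunit Sdhb, at 0.81 (adjusted p 0.0605).

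In complex III, 1 of 9 genes was called. Uqcrfs1, the Rieske iron-sulfur protein, measured 11.14, 10.81 and 11.30 in villi and 9.95, 10.14 and 10.55 in crypts (0.87, SE 0.20, adjusted p 0.0152), and the groups did not overlap. Its call held in 9 of 15 alternatives, with a difference down to 0.49. Cytochrome c (Cycs), which also takes part in apoptosis, measured 11.72, 12.36 and 12.05 in villi and 10.89, 11.20 and 11.99 in crypts. Crypt K41 reached the villus range, and the difference of 0.68 was uncalled (adjusted p 0.124). Its other probe sets gave larger differences, with means of 11.58 in villi against 9.72 in crypts and of 10.84 in villi against 9.02 in crypts.

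Complex IV held the largest change of all members. Cox7a1, the heart and skeletal muscle isoform of subunit VIIa, measured 9.67, 9.24 and 9.95 in villi and 6.24, 5.97 and 7.34 in crypts. The villus arrays lay far above the crypt arrays, and crypt K41 was the highest crypt array. The crypt mean stood at percentile 35.0 among all genes, close to background, so the size of the difference is not exact. Cox7a1 was 8.59-fold higher in villi (3.10, SE 0.36, adjusted p 0.00086), at 9.62 ± 0.36 in villi and 6.52 ± 0.72 in crypts (SD, n = 3 each), and was called under every alternative tried, at 2.67 to 3.51. Its widely expressed counterpart Cox7a2 measured 11.87, 11.79 and 12.24 in villi and 10.42, 11.35 and 11.86 in crypts. These groups overlapped, and the difference of 0.76 was uncalled (adjusted p 0.136). Its second probe set gave 0.43.

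Cox6b2, known as the testis isoform of subunit VIb, measured 7.71, 8.30 and 6.61 in villi and 5.48, 5.28 and 5.28 in crypts. All 3 crypt arrays lay below the 30th percentile, so the gene passed the filter only through the 3 villus arrays where it was high, and its call (adjusted p 0.00458) had to be a difference in that direction. With the 30th percentile standing for crypts, it was at least 3.38-fold higher in villi. The common isoform Cox6b1 measured 12.21, 12.33 and 12.47 in villi and 11.47, 11.42 and 12.18 in crypts, and was uncalled at 0.64 (adjusted p 0.0618). A further 3 complex IV subunits lay close to the threshold without passing it. They were Cox5a, chosen after its values were seen (0.81, adjusted p 0.0748, with 0.33 and 0.31 for its other probe sets), Cox6a1 (0.53, adjusted p 0.0529) and Cox8a (0.55, adjusted p 0.0529). The muscle isoforms Cox6a2 and Cox8b and the lung isoform Cox4i2 stayed at low signal in all 6 adult arrays, between 6.01 and 6.94.

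**Figure D2:**
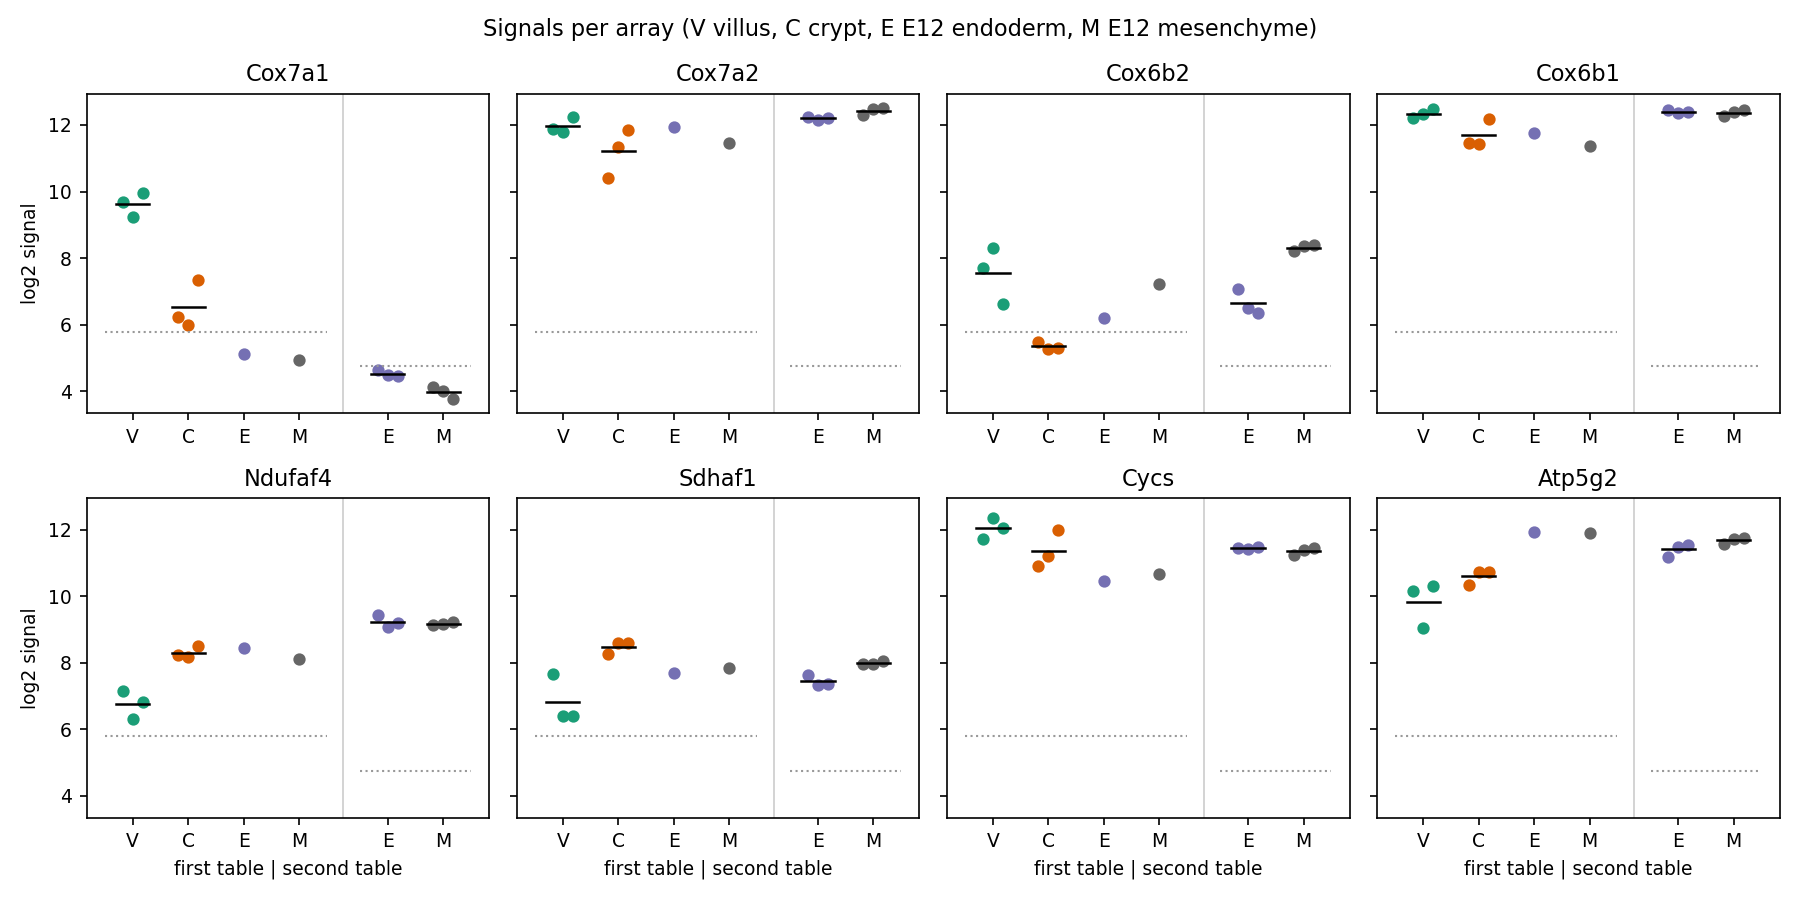
Log2 signal of 8 members in each array, in villi (V), crypts (C), E12 endoderm (E) and E12 mesenchyme (M), with the first table left of the grey line and the second right of it. Points are arrays, short lines are means of 3 arrays, and the dotted line is the 30th percentile of the table. Cox7a1 is high in the 3 villus arrays (9.24 to 9.95) and lies below the dotted line in every E12 array, while Cox7a2 is high in all groups.

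Among the ATP synthase genes, 1 of 17 was called. Atp5mpl, a small subunit of the membrane part, measured 10.25, 9.86 and 10.20 in villi and 9.42, 9.49 and 9.76 in crypts (0.55, SE 0.17, adjusted p 0.04). The groups lay close without overlapping, and the call held in only 7 of 15 alternatives, with a difference down to 0.22 and an adjusted p up to 0.597. The c subunit of the rotor is encoded by 3 genes with the same mature product. Of these, Atp5g2 measured 10.15, 9.04 and 10.31 in villi and 10.34, 10.72 and 10.72 in crypts, and was uncalled at -0.76 (adjusted p 0.117). Atp5g1, chosen after its values were seen, was uncalled at -0.61 (adjusted p 0.208). Atp5g3, chosen in the same way, averaged 12.24 in villi and 12.11 in crypts and was uncalled too. The catalytic core gene Atp5b averaged 12.17 ± 0.34 in villi and 11.88 ± 0.22 in crypts (SD, n = 3 each) and was also uncalled.

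In the main fit the 2 members called lower in villi were both assembly factors, out of 8 tested (25.0%, against 15.0% of all genes). After quantile normalization 8 members were called lower, subunits among them. Ndufaf4, needed for an early step of complex I assembly, measured 7.16, 6.31 and 6.81 in villi and 8.23, 8.16 and 8.49 in crypts. Every villus array lay below every crypt array, and the gene was 2.9-fold lower in villi (-1.53, SE 0.23, adjusted p 0.00239). Its second probe set gave -1.38, and the call held under every alternative tried. Sdhaf1, which helps to place iron-sulfur clusters in Sdhb, measured 7.67, 6.41 and 6.40 in villi and 8.27, 8.59 and 8.59 in crypts (-1.66, SE 0.34, adjusted p 0.00871). The groups did not overlap, and villus V12 lay closest to the crypts.

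The number of called subunits depended on single arrays, and most on crypt K41. Without crypt K41, 22 of 88 members were called higher in villi and 2 lower, with a member median of 0.43. Of the 9841 genes tested in that fit, 1553 were called higher and 1157 lower. The share of members called higher then lay above that of all genes, unlike in the main fit. The 22 comprised 6 genes of complex I, 1 of complex II, 2 of complex III, Cycs, 7 of complex IV and 5 of complex V. Without crypt K12 or crypt K21, 5 members were called in all, and without villus V275, 4.

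**Figure D3:**
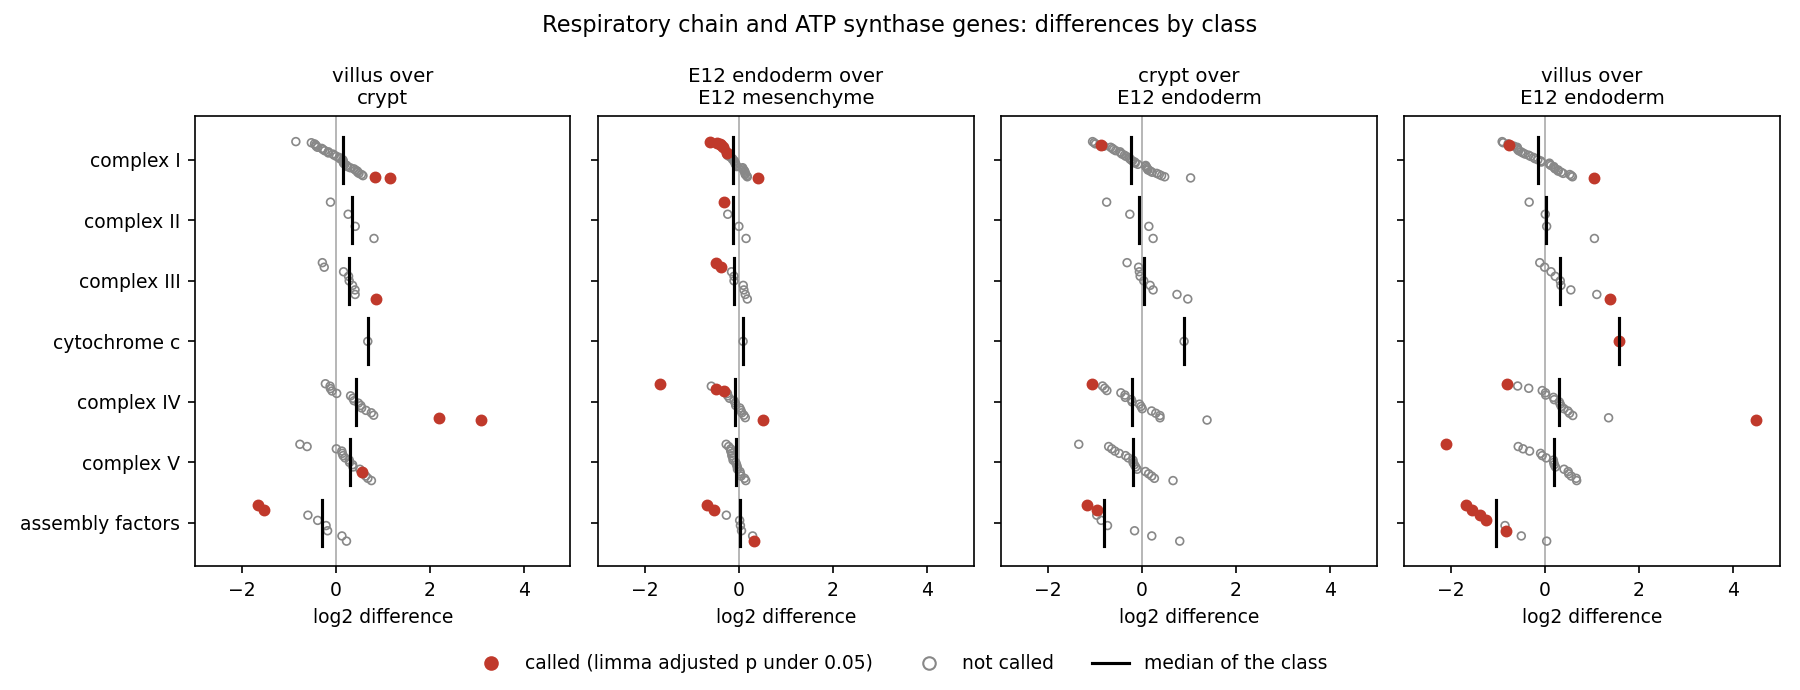
Log2 difference of each member tested (points; red where called) by class in the 4 comparisons, with the class median as a black bar. Most points lie within 0.5 of zero, the called members spread over several classes, and Cox7a1 (3.10 in villi over crypts, 4.49 in villi over an E12 endoderm value below the 30th percentile) lies farthest out. Between villi and crypts the medians of complexes I, II, III and V were 0.15, 0.34, 0.29 and 0.29 as drawn and turned to -0.18, -0.05, -0.10 and -0.01 after quantile normalization.

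Between the E12 layers, more members were called but almost all changes were small. Of 88 members tested, 3 were called higher in endoderm (3.41%), where 27.7% of all genes were called higher, and 14 were called lower (15.9%), where 25.4% of all genes were. The difference was under 0.5 in size for 82 of 88 members (93.2%), against 62.0% of all genes. The member median was -0.09, against 0.03 over all genes. When arrays were centred on the median of the members instead, which moved the median of all genes to 0.26, 26 members were called higher and 6 lower. Without mesenchyme 3 or mesenchyme 4, 11 members were called in place of 17. Cox7a1 was not tested here. It measured 4.63, 4.49 and 4.45 in E12 endoderm and 4.12, 4.01 and 3.77 in mesenchyme, below the 30th percentile in all 6 arrays.

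Complex I had 1 subunit called higher and 6 called lower, of 33. Ndufs5, a subunit on the intermembrane side, measured 9.51, 9.47 and 9.45 in endoderm and 10.03, 10.10 and 10.12 in mesenchyme (-0.61, adjusted p 0.000314). The layers were well apart and each varied little. Ndufa1 measured 10.56, 10.52 and 10.56 in endoderm and 10.81, 11.16 and 11.06 in mesenchyme (-0.46, adjusted p 0.00661). The accessory subunits Ndufb3 (-0.40), Ndufa8 (-0.38), Ndufv3 (-0.35) and the iron-sulfur subunit Ndufs8 (-0.26, adjusted p 0.0454) were also called lower, and were named after their values were seen. Ndufs8 lost its call with the pool number as a block (adjusted p 0.0607). Ndufb1, named in the same way, was called higher, at 7.08 ± 0.09 in endoderm and 6.68 ± 0.035 in mesenchyme (SD, n = 3 each; 0.41, adjusted p 0.00446 in limma).

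Sdhb was the only called gene of 4 in complex II, at -0.32 (adjusted p 0.0166). In complex III, 2 of 9 were called lower. The hinge protein Uqcrh, which helps cytochrome c to dock, measured 10.34, 10.38 and 10.41 in endoderm and 10.68, 10.97 and 10.94 in mesenchyme (-0.49, adjusted p 0.00405), without overlap. Uqcrq was called at -0.38 (adjusted p 0.0147), but its value turned to 0.08 when the median of its probe sets was taken, the others lying near background. Cycs differed by 0.09 (adjusted p 0.436), and by -0.01 with the median of its probe sets.

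Complex IV again held the largest change. Cox6b2 measured 7.08, 6.50 and 6.35 in E12 endoderm and 8.21, 8.35 and 8.38 in mesenchyme. It was 3.18-fold lower in endoderm (-1.67, SE 0.18, adjusted p 8.5e-05), with every endoderm array below every mesenchyme array, and was called under every alternative tried. Cox6b1 showed no such gap, with 12.44, 12.37 and 12.40 in endoderm and 12.26, 12.38 and 12.44 in mesenchyme. Ndufa4, a subunit of cytochrome c oxidase despite its symbol, measured 10.21, 10.34 and 10.39 in endoderm and 10.78, 10.82 and 10.81 in mesenchyme (-0.49, adjusted p 0.00161).

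Cox5a went the other way. It measured 12.00, 11.83 and 11.95 in endoderm and 11.41, 11.52 and 11.33 in mesenchyme (0.51, adjusted p 0.00207), with no overlap and with its 3 probe sets all positive. The supercomplex factor Cox7a2l was called at -0.31 (adjusted p 0.0487), although the layers touched at 10.91, and lost the call with the pool number as a block (adjusted p 0.0784).

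None of the 17 ATP synthase genes was called by limma between the layers, and 1 had an unadjusted p under 0.05. The largest difference was that of Atp5g2, at 11.19, 11.49 and 11.55 in endoderm and 11.58, 11.71 and 11.75 in mesenchyme (-0.27, adjusted p 0.0835). It was called with the pool number as a block (adjusted p 0.0449). Atpif1, an inhibitor of ATP synthase and not a member, was called higher in endoderm at 0.38 (adjusted p 0.00904). Among the 8 assembly factors, Ndufaf3, which acts with Ndufaf4, measured 6.74, 6.98 and 6.85 in endoderm and 7.41, 7.58 and 7.60 in mesenchyme (-0.67, adjusted p 0.000642). Sdhaf1 was lower too, at -0.54 (adjusted p 0.00297), while Ndufaf1, an early factor for the membrane arm that was named after its values were seen, was higher at 0.32 (adjusted p 0.0487). Of the 17 called members, 8 kept their call under every alternative tried: Cox5a, Cox6b2, Ndufa4, Ndufaf3, Ndufb1, Ndufs5, Sdhaf1 and Uqcrh.

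The lone pair of E12 arrays, made from 35 pooled fetuses, gave the same direction for 3 of the 3 members called higher in endoderm but for 5 of the 14 called lower (35.7%). Over all genes called lower, 2229 of 2395 (93.1%) kept their direction in that pair, and of those called higher 2493 of 2615 (95.3%). The 5 were Cox6b2 (-1.05), Uqcrh (-0.26), Sdhaf1 (-0.17), Ndufaf3 (-0.07) and Ndufa1 (-0.05). In that pair 71 of 88 members were higher in endoderm (80.7%), against 55.1% of all genes, with a median of 0.24 against 0.06. The small shift of most members toward mesenchyme was thus not seen in the first table, whereas that of Cox6b2 was. With 1 array per layer this pair has no replicate check.

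**Figure D4:**
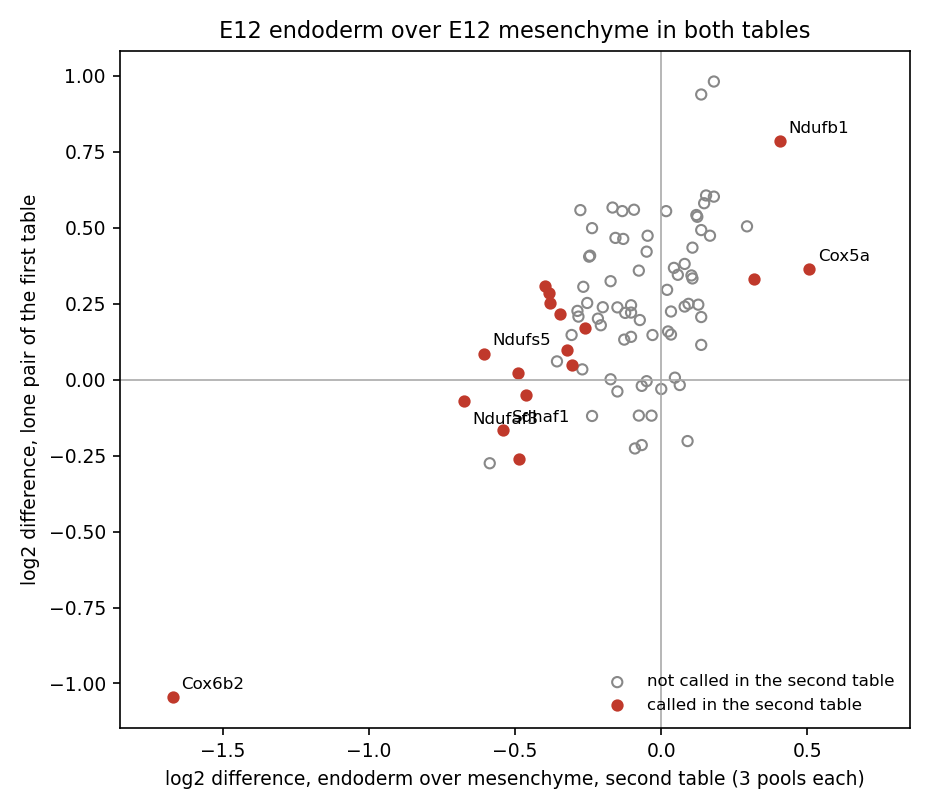
Log2 difference of E12 endoderm over mesenchyme for 88 members, in the second table (3 arrays per layer, horizontal axis) and in the lone pair of the first table (vertical axis). Most points lie above zero on the vertical axis (71 of 88), Cox6b2 is far below zero on both (-1.67 and -1.05), and most members called lower in the second table are not negative in the lone pair.

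The adult compartments were set against the E12 endoderm, the layer that forms the epithelium, within the first table. Only 1 E12 endoderm array stood there, so the spread came from the adult arrays, and the crypt and the villus comparison share that array. In crypts, 0 of 89 members were called higher, where 8.20% of all genes were, and 4 were called lower (4.49%), where 15.1% of all genes were. The member median was -0.16, against 0.05 over all genes, and turned to 0.13 after quantile normalization, where 5 members were called higher and 2 lower. None of the 4 calls held under every alternative: without crypt K12 or crypt K21 no member was called, and without crypt K41, 7 were.

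The 4 genes lower in crypts came from 3 classes. Sdhaf4, which binds Sdha after its flavin is attached, measured 7.48, 7.95 and 8.17 in crypts and 9.04 in E12 endoderm (-1.18, adjusted p 0.0455). Ndufaf1 measured 6.33, 6.31 and 6.75 in crypts and 7.43 in E12 endoderm (-0.97, adjusted p 0.0379). Ndufa7, an accessory subunit of complex I, measured 9.53, 9.70 and 9.97 in crypts and 10.59 in E12 endoderm (-0.86, adjusted p 0.0494). All crypt arrays of these genes lay below the E12 array. Cox7c measured 5.26, 5.12 and 5.16 in crypts, all under the 30th percentile, and 6.25 in E12 endoderm. It passed the filter only through villus V12 and the E12 arrays, so its call (adjusted p 0.0275) had to be a fall in crypts. With the 30th percentile standing for crypts, the fall was at least 1.38-fold. The call held in 4 of the 7 alternatives that tested it.

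Several larger differences did not pass the test. Cox7a1 was at 1.39 (adjusted p 0.0848), with 5.13 in E12 endoderm, below the 30th percentile. Atp5g2 was at -1.35 (adjusted p 0.0722) and Uqcrq at 0.98 (adjusted p 0.122). Cycs was at 0.90 (adjusted p 0.158), but its other probe sets gave -0.67 and -0.06. The membrane anchor Sdhd of complex II was at -0.75 (adjusted p 0.209).

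In villi, 4 of 89 members were called higher than in E12 endoderm (4.49%), where 17.0% of all genes were, and 8 were called lower (8.99%), where 22.1% of all genes were. The member median was 0.03, against 0.13 over all genes. Cox7a1 measured 9.67, 9.24 and 9.95 in villi, against 5.13 in the E12 endoderm array, which lay below the 30th percentile. With that percentile standing for the E12 array, it was at least 14.3-fold higher in villi (adjusted p 0.000429), a value that rests on 1 E12 array. Cycs measured 11.72, 12.36 and 12.05 in villi and 10.46 in E12 endoderm (1.58, adjusted p 0.0203), and its other probe sets gave 1.19 and 1.77. Uqcrq, a small subunit of complex III, measured 10.90, 10.75 and 11.05 in villi and 9.51 in E12 endoderm (1.39, adjusted p 0.0306). Its other 3 probe sets, all of lower signal, gave 0.21, 0.44 and 0.43, and the call was lost in 4 of 12 alternatives, with a difference down to 0.40. Ndufa1 was higher as well (1.04, adjusted p 0.0294). Sdhb, at 1.05 (adjusted p 0.0692), and the core protein Uqcrc2, at 1.10 (adjusted p 0.056; 0.62 for its second probe set) and named after its values were seen, were uncalled.

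Of the 8 assembly factors, 5 were called lower in villi than in E12 endoderm (62.5%, against 22.1% of all genes). The median over the 8 was -1.05, against 0.13 over all genes. Ndufaf4 measured 7.16, 6.31 and 6.81 in villi and 8.45 in E12 endoderm (-1.69, adjusted p 0.00476). Ndufaf5, which hydroxylates an arginine of Ndufs7, measured 5.86, 5.13 and 5.59 in villi, around the 30th percentile, and 7.08 in E12 endoderm (-1.56, adjusted p 0.00809). Sdhaf4 (-1.38, adjusted p 0.016), Ndufaf7, a methyltransferase (-1.25, adjusted p 0.0202), and Ndufaf1 (-0.84, adjusted p 0.0421) completed the 5, and these last 3 were named after their values were seen. Sdhaf1 was uncalled at -0.85 (adjusted p 0.191). The median of the 8 stayed negative under every scaling, from -1.06 to -0.97, and 3 to 5 of them were called.

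Atp5g2 showed the largest fall among the subunits. It measured 10.15, 9.04 and 10.31 in villi, 10.34, 10.72 and 10.72 in crypts and 11.94 in E12 endoderm. Villi lay lowest, crypts between and the E12 array highest, and the gene was 4.32-fold lower in villi than in E12 endoderm (-2.11, adjusted p 0.0089). Its second probe set stood near background. Atp5g3, which encodes the same mature product, showed no such fall, at means of 12.24 in villi and 12.11 in crypts and 12.21 in E12 endoderm. The other genes called lower were Ndufa7 (-0.78, adjusted p 0.0484) and Cox7c (-0.81, adjusted p 0.0488), the second at 5.82, 5.13 and 5.37 in villi. Of the villus arrays only V12 passed the 30th percentile for Cox7c, so a call in the other direction was hardly possible. That call held in 3 of the 6 alternatives that tested it. Cox7a1, Ndufaf4, Ndufaf5 and Sdhaf4 were the 4 of these 12 members whose call held under every alternative tried.

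The lists of other mitochondrial genes were set beside the members and beside all genes. Between villi and crypts, 10 of 19 genes of protein import and 21 of 74 mitochondrial ribosomal proteins were called lower (52.6% and 28.4%, against 15.0% of all genes), with 0 and 1 called higher. Their medians were -0.78 and -0.50, and the import gene with the largest change was the chaperonin Hspe1 (-2.59, adjusted p 0.00484). The list of carriers and porins, which also held the mitochondrial creatine kinase Ckmt1, had 7 of 11 called higher (63.6%, against 16.9% of all genes) and none lower. Ckmt1, itself neither a carrier nor a porin, had the largest difference (2.13, adjusted p 0.00462). Under each of the 4 scalings the medians of import genes and ribosomal proteins stayed below zero and that of the carriers above. The TCA cycle, which feeds the chain with NADH, had 5 of 13 called higher (38.5%) and 1 lower, led by Ogdh (1.82, adjusted p 0.00112), although its median was -0.06. Of 30 assembly factors outside the symbol rule, 3 were called higher (10.0%) and 8 lower (26.7%), led by Lrpprc (-1.36, adjusted p 0.00466). Among 17 regulators of mitochondrial biogenesis, 4 were called higher (23.5%) and 7 lower (41.2%).

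Against E12 endoderm, villi had 13 of 19 import genes and 35 of 74 ribosomal proteins called lower (68.4% and 47.3%, against 22.1% of all genes) and none higher. The same lists in crypts had 2 of 19 and 8 of 74 called lower, both shares lying under the 15.1% of all genes. Their differences in crypts were still mostly negative, for 18 of 19 import genes and 65 of 74 ribosomal proteins. The medians were -0.92 and -0.45, against 0.05 over all genes. The carrier Slc25a4, which exchanges ADP and ATP across the inner membrane, measured on average 6.66 in crypts and 11.17 in E12 endoderm (-4.51, adjusted p 0.000159). Its paralog Slc25a5 averaged 11.81 in crypts and measured 12.44 in the same single E12 endoderm array. Between the E12 layers, 10 of 20 import genes were called higher in endoderm (against 27.7% of all genes) and 1 lower. The 23 of 74 ribosomal proteins called higher (31.1%) were near the share of all genes, and 8 were called lower. There the coactivator Ppargc1a, a regulator of mitochondrial genes, had a mean of 4.27 in endoderm, below the 30th percentile, and of 5.59 in mesenchyme. With endoderm near background, its call (adjusted p 0.000107 in limma) could hardly be other than a fall in endoderm, and its size is not exact.

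**Figure D5:**
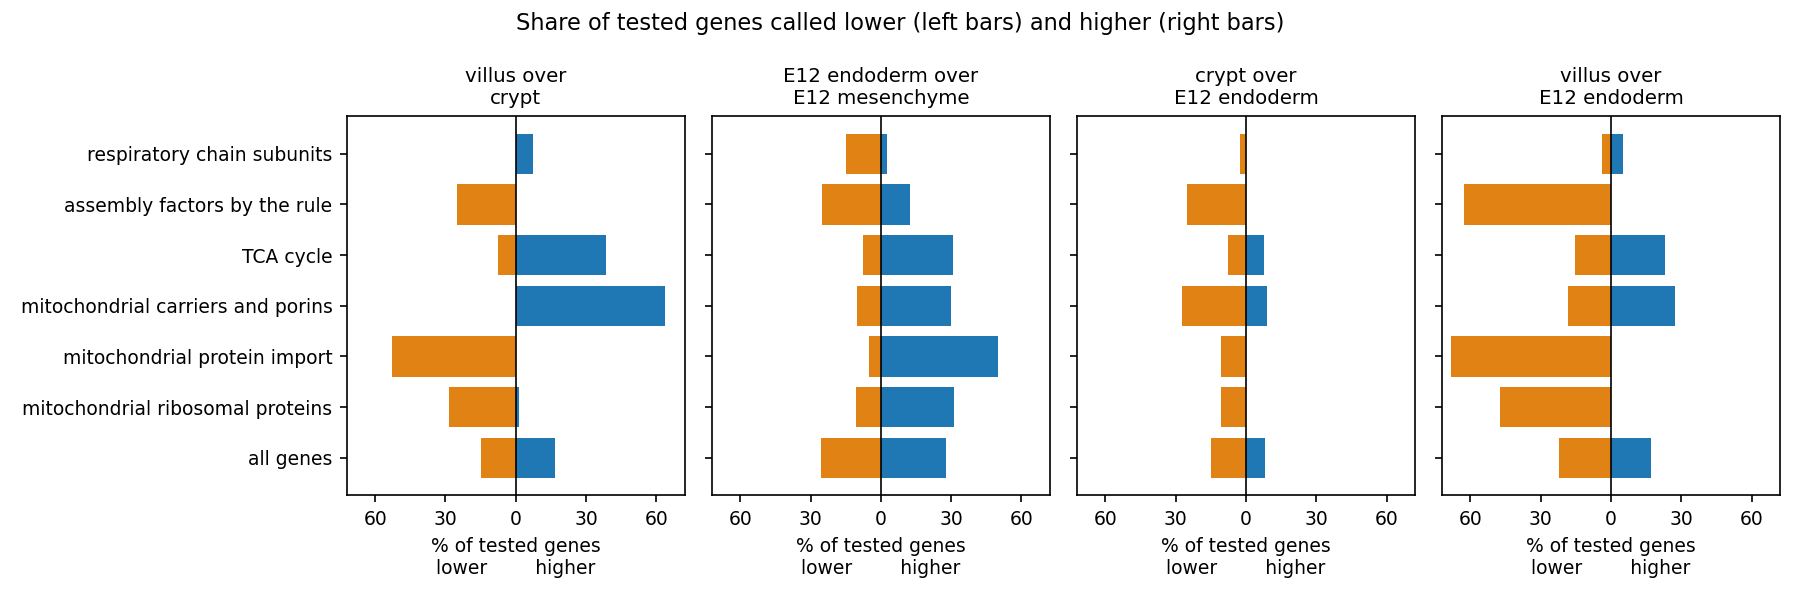
Percent of the genes tested that were called lower (orange, left) and higher (blue, right) in each comparison, for the subunits and assembly factors among the members, for 4 lists of other mitochondrial genes and for all genes. Between villi and crypts, import genes and mitochondrial ribosomal proteins reach left, carriers and porins reach right, and subunits have a short bar to the right (6 of 80 called higher, none lower), which became 3 higher and 6 lower after quantile normalization.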

How the data were processed

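RNA was purified on columns, digested with DNase and measured on expression arrays with a phycoerythrin label, per the labels. The authors deposited log2 signals, made by RMA per the submitters' processing notes, in 2 tables that were kept apart; the notes used here give no version. Arrays give no read depth, so their number limits the precision. Of 22690 probe sets, 20393 had 1 symbol, 691 several and 1606 none; 8 with shared symbols of this gene family were left out. A gene was represented by its probe set of highest mean. The members and lists were chosen with earlier results of these data known.

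Each comparison was fitted with limma 3.58.1 in R 4.3.3 (lmFit and eBayes, moderated, two-sided) over all genes passing the filter, with Benjamini-Hochberg adjustment, and the fit was tested on simulated data. The E12 fit used the 6 arrays of the second table. Adult against E12 endoderm used 1 fit of the 4 groups of the first table, where the lone E12 array was assumed to vary like the adult ones. Figures were drawn with matplotlib 3.10.9 under Python 3.11.15. Per comparison, the text names the 2 called genes of each class with the largest differences and no overlap (in a class without a call, the gene that differed most). Of a fixed set of isoforms and core subunits, and of the called genes with the largest difference of each other list, it names only a part. Fixed genes uncalled and under 0.5 are mostly left to counts. Some uncalled fixed genes above 0.5 against E12 endoderm are left out too, such as Cox6b2 (-0.84 in crypts, 1.35 in villi) and Atp5a1 (-0.71 in crypts, -0.57 in villi).

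E12 pools of the same number tended to deviate together over genes (correlations 0.2112, 0.234 and 0.1057 for pools 2, 3 and 4). Pools of unequal number gave -0.298 to 0.129, so pool 4 did not stand apart. The main fit did not use the pool number, so its E12 p-values ignore any pairing, and a block for it was an alternative. Others were quantile normalization, centring on the array median or on the median of the members (the last chosen after seeing the data), other filters, other choices of probe set, a trended and robust prior, leaving out each array, all 8 E12 arrays with the table as a block, and fits of the compared groups alone. No array duplicated another.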

Additional observations from a re-analysis of the deposited data

How the results depend on the processing

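Over 106 named results, 1232 of 1424 alternative values kept their direction and side of the threshold, 153 lost a call, 35 gained one and 4 turned sign; of 41 called member results, 15 held throughout. Of the 8 members called between villi and crypts, centring on the median of the members left 5 and the median of probe sets gave 13. A replicate block gave 3, and the calls of Atp5mpl, Ndufa1, Ndufa6, Sdhaf1 and Uqcrfs1 were lost. The adult numbers were not taken as a pairing in the main fit. Their same-number correlations were 0.1604 for number 12, the highest of all pairs, and 0.0686 for number 41. Unequal numbers gave -0.1002 to 0.0782. Leaving out arrays gave 4 to 24. Quantile normalization gave 3 higher and 8 lower. Of the 17 called between E12 layers, centring on the members gave 32 (all-gene median 0.26), all 8 E12 arrays with the table as a block 11, the replicate block 19, and leaving out arrays 11 to 24; the member median of -0.09 became -0.16 with probe sets of 1 transcript type and -0.019 with all 8 arrays. Of the 4 called between crypts and E12 endoderm, quantile normalization gave 7, centring on the members 0, a stricter filter 2, the 2 groups alone 7, and leaving out arrays 0 to 7. Of the 12 called between villi and E12 endoderm, quantile normalization gave 7 higher and 7 lower, centring on the members 6, probe sets of 1 transcript type 6, and the 2 groups alone 7. Centring on the members moved the all-gene median to -0.13 between villi and crypts, 0.19 between crypts and E12 endoderm and 0.12 between villi and E12 endoderm. With the median of probe sets, Cycs turned to -0.013 between E12 layers and to -0.67 between crypts and E12 endoderm (-0.056 with probe sets of 1 transcript type), and Uqcrq turned to 0.08 between E12 layers. Fewer samples or genes enter some of these fits; otherwise the cause was not tested.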
